A study of Mus musculus with 6 samples.

Results

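The inhibitor of miR-31 was set against the inhibitor of miR-27 in MS-1 cells, an endothelial line of mouse origin made to grow without limit, with no negative-control library in the comparison. It used 4 of the 6 libraries of the study, and these were chosen by their labels alone. The 4 libraries came from MS-1 cells transfected with the miR-31 inhibitor and cultured for 72 h with 1 ng/ml TGF-β2 or without it, and from MS-1 cells transfected with the miR-27 inhibitor and cultured in the same 2 ways. The other 2 libraries, from cells given a negative-control inhibitor with and without TGF-β2, are shown beside some results. All inhibitors were of the LNA (locked nucleic acid) type, and the sequences of these oligonucleotides are not given in the sources used here. Each condition had 1 library, and no label says that separate cultures were used, so a p-value here reflects only how far these samples spread. The table gave FPKM (fragments set relative to transcript length and library size) for 29955 gene names. Of these, 11816 averaged at least 1 FPKM over the 6 libraries, and the 11775 of them listed above 0 in each of the 4 libraries were tested. All differences below are the miR-31 library minus the miR-27 library on the scale log2(FPKM + 1), which understates differences of genes with low FPKM.

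A microRNA guides an Argonaute protein to messenger RNAs that hold a match to its seed, and these messages are then repressed or degraded, so an LNA inhibitor that captures the microRNA releases its targets. TGF-β moves endothelial cells toward a mesenchymal state, with new matrix and secreted factors and fewer endothelial features. miR-31 has been linked to endothelial adhesion molecules and to TGF-β responses, and the miR-27 family to the growth of new vessels, and the comparison addresses how the RNA of cells with either inhibitor differs in the same TGF-β state. The mature microRNAs are shown because their seeds, here in capitals (bases 2 to 8), decide which sites each inhibitor could release; the sequences are RefSeq's on build GRCm38.p6.
mmu-miR-31-5p: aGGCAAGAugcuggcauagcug
mmu-miR-27a-3p: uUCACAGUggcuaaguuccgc
mmu-miR-27b-3p: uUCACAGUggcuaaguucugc
miR-27a and miR-27b share the seed UCACAGU and therefore the 7-base site ACTGTGA in a message, while the site for miR-31 is TCTTGCC. The genes of these microRNAs lie on chromosome 4 (miR-31, minus strand), chromosome 8 (miR-27a, plus strand) and chromosome 13 (miR-27b, plus strand). The table listed the precursor names of all 3 at 0 in all 6 libraries, so the level of the inhibited microRNAs could not be read from these libraries.

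The libraries had similar depth of gene detection, with 11791 and 11715 names at 1 FPKM or more in the miR-31 libraries with and without TGF-β and 11776 and 11680 in the miR-27 libraries. Total counts were not in the table, so the depth behind each value is unknown. Of the 10 endothelial markers, 9 passed the filter, led by Pecam1, an adhesion molecule of the endothelial junction, at 633 and 647 FPKM in the miR-31 libraries with and without TGF-β and 643 and 593 FPKM in the miR-27 libraries. The tight junction gene Cldn5 was near 0 throughout, at no more than 0.0359 FPKM. Among markers of other cells, the leukocyte genes Ptprc, Cd3e and Itgam and the epithelial genes Epcam, Cdh1 and Krt8 were at or near 0. The leukocyte genes Cd68 and Lyz2 and the epithelial gene Krt18 passed the filter. With and without TGF-β, Cd68 had 122.5 and 191.1 FPKM in the miR-31 libraries and 135.2 and 211 FPKM in the miR-27 libraries. Krt18 had 14.84 and 53.27 FPKM in the miR-31 libraries and 15.75 and 54.02 FPKM in the miR-27 libraries, in the same order. Lyz2 lay between 1.03 and 1.36 FPKM in these libraries. The pancreas markers summed to at most 0.242 FPKM in a library. In bulk RNA, fewer cells with a gene and less of its RNA per cell cannot be told apart. Of the names with a mean of at least 1 FPKM, 41 were listed at 0 in some of the 4 libraries and left out, 11 of them only in the miR-31 library with TGF-β. Mapk9, the JNK2 kinase gene, was among them, listed at 0 in both miR-31 libraries against 22.9 FPKM in the miR-27 library with TGF-β and 19.9 FPKM in the miR-27 library without it. As Eef1a1, a gene that every cell uses, was listed at 0 in all 6 libraries, a 0 in this table can be a failed estimate, and no fold is given for these names.

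Over both TGF-β states together, no gene was called between the inhibitors. With the TGF-β state as a term, limma called 0 of 11775 genes (0%) at an adjusted p under 0.05, with 316 genes at an unadjusted p under 0.05, 160 of them higher with the miR-31 inhibitor. The smallest adjusted p was 0.288, for the small Cajal body RNA Scarna3b, whose mean difference was -1.38 ± 0.09 (SE of the fit). With all 6 libraries in the fit, limma also called 0 genes, with 426 at an unadjusted p under 0.05. Scarna3b and the other short RNAs are poorly measured by FPKM. The test compares 2 pairs of libraries and has 1 residual degree of freedom before moderation, so its residual holds any true dependence of the difference on TGF-β as well as noise.

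The difference between the inhibitors lay mostly in the cells with TGF-β. With TGF-β, 28 genes (0.238% of those tested) were higher by at least 1 with the miR-31 inhibitor and 10 (0.0849%) were lower. Without TGF-β, 8 genes (0.0679%) were higher and 9 (0.0764%) were lower. At a threshold of 0.3 there were 530 higher (4.5%) and 315 lower (2.68%) with TGF-β, against 86 higher (0.73%) and 89 lower (0.756%) without it. The difference had a median over genes of -0.01 with TGF-β and 0.01 without it, and its SD over genes was 0.194 with TGF-β and 0.11 without it. Differences under 0.1 in size made up 55.04% of genes with TGF-β and 81.3% without it. The plot of both states against each other shows this spread along its vertical axis. With 1 library a group there is no test within a state.

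**Figure D1:**
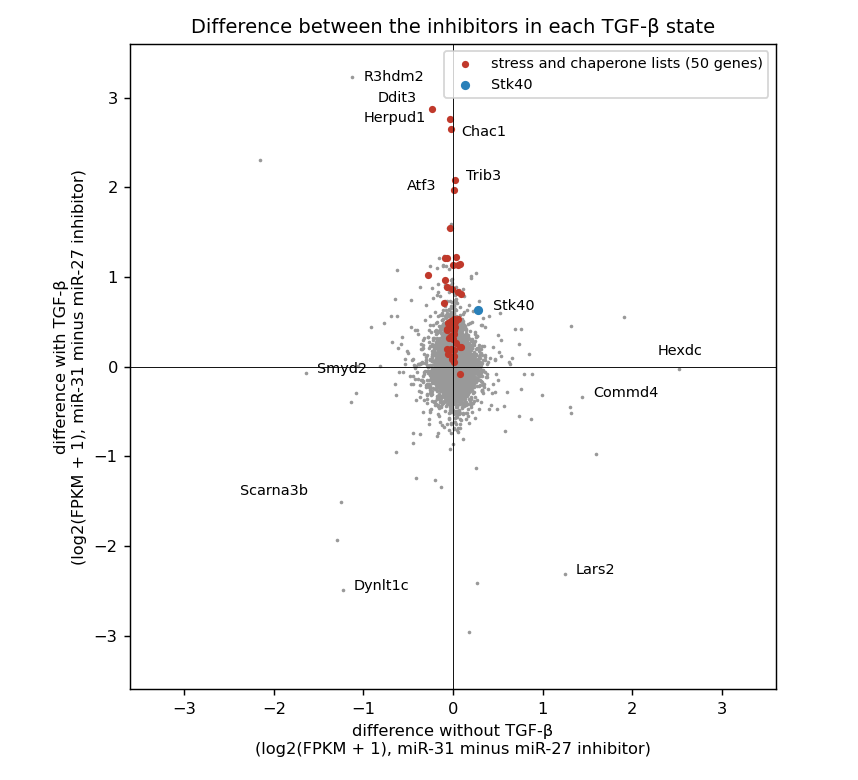
Each point is 1 of the 11775 genes, with the difference without TGF-β on the horizontal axis and the difference with TGF-β on the vertical axis (both log2(FPKM + 1), miR-31 minus miR-27 inhibitor). Red points are the 50 tested genes of the ATF4-CHOP stress and ER chaperone lists, which lie near 0 without TGF-β and reach 2.87 with it at Ddit3; Stk40, in blue, is above 0 in both states.

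Genes of the integrated stress response and of the unfolded protein response made up most of the named genes far apart with TGF-β. The integrated stress response works through the transcription factor ATF4 and its target CHOP (gene Ddit3), which raise amino acid supply and, when prolonged, favour cell death; the unfolded protein response raises chaperones of the endoplasmic reticulum (ER) through ATF6 and XBP1. Of the 30 tested genes of the ATF4-CHOP list, 23 were higher by at least 0.3 with TGF-β and 0 lower, and 7 were higher by at least 1, with a median difference of 0.49 against -0.01 over all genes. Without TGF-β, 0 of the 30 passed 0.3 in either direction and the median was -0.03. The ER chaperone list had 15 of 20 genes higher by at least 0.3 with TGF-β, 6 of them by at least 1, and 0 lower, with a median of 0.49. Its median without TGF-β was 0.02, and 0 of the 20 passed 0.3.

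Ddit3 stood at 298 FPKM in the miR-31 library with TGF-β, against 39.8 FPKM with the miR-27 inhibitor and 19.6 FPKM with the negative-control inhibitor in the same state. Without TGF-β it was at 59.2 FPKM with the miR-31 inhibitor, 70.2 FPKM with the miR-27 inhibitor and 41.0 FPKM with the negative-control inhibitor. The miR-31 library with TGF-β was thus the highest of the 6, and the difference was 2.87 with TGF-β and -0.24 without it. In these lists some genes share their place with another name, such as Ddit3 with Mars, Sesn2 with AK155592 and Syvn1 with Mrpl49. How fragments were divided between these names was not tested. Herpud1, a component of the machinery that removes misfolded proteins from the ER, had 218 FPKM in the miR-31 library with TGF-β, 31.2 FPKM in the miR-27 library with TGF-β and between 18.4 and 24.8 FPKM in the other 4 libraries. Its difference was 2.77 with TGF-β and -0.04 without it. Chac1, which degrades glutathione and is a target of ATF4 and CHOP, had 109 FPKM in the miR-31 library and 16.4 FPKM in the miR-27 library with TGF-β (a difference of 2.66). Without TGF-β, Chac1 had 48.4 FPKM in the miR-31 library and 49.3 FPKM in the miR-27 library (-0.03). Trib3, a pseudokinase induced by CHOP, was also apart with TGF-β alone, at 95.4 FPKM in the miR-31 library and 21.7 FPKM in the miR-27 library with TGF-β, and at 73.7 FPKM in the miR-31 library and 72.7 FPKM in the miR-27 library without it. Atf3, a stress-induced transcription factor, had 88.8 FPKM in the TGF-β-treated miR-31 library and between 22.0 and 32.0 FPKM in the other 5 libraries. The bars of 8 stress and chaperone genes show the miR-31 library with TGF-β apart from the miR-27 library for all of them.

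**Figure D2:**
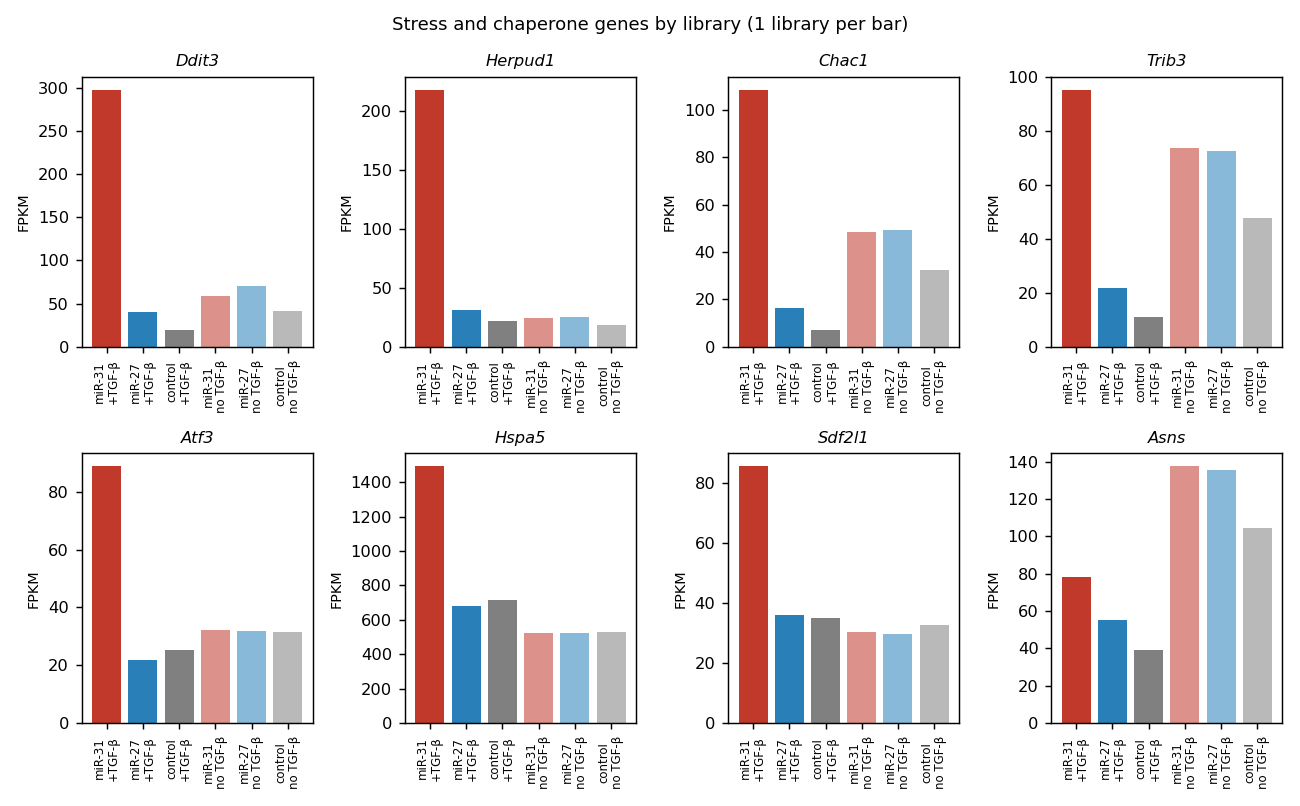
FPKM of 8 genes of the stress and chaperone lists, with 1 bar for each of the 6 libraries (red for miR-31, blue for miR-27 and grey for the negative-control inhibitor; dark bars with TGF-β, light bars for its absence). The miR-31 library with TGF-β is the highest of the 6 for every gene shown but Asns, where the 3 libraries without TGF-β are higher, led by 137 FPKM for miR-31 and 135 FPKM for miR-27.

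Further down the ATF4-CHOP list, the stress sensor Sesn2 differed by 1.55 with TGF-β, the chromatin-associated stress protein gene Nupr1 by 1.21 and the cystine transporter gene Slc7a11 by 1.03. Ppp1r15a, which restores translation after stress, differed by 0.97, and Atf4 itself by 0.86, at 343 FPKM in the miR-31 library and 189 FPKM in the miR-27 library. The asparagine synthetase gene Asns, with 78.1 FPKM in the miR-31 library and 55 FPKM in the miR-27 library with TGF-β (0.50), and the serine synthesis gene Phgdh (0.09) show that enzymes of amino acid supply stood less far apart than Ddit3 and Chac1. Without TGF-β, these enzymes were at higher FPKM than with it in both inhibitor libraries, Asns at 137 FPKM with the miR-31 inhibitor and 135 FPKM with the miR-27 inhibitor.

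Among the chaperones, Hspa5 (BiP), the central chaperone of the ER, was at 1493 FPKM in the miR-31 library and 679 FPKM in the miR-27 library with TGF-β, a difference of 1.14. Without TGF-β it was at 522 FPKM in both libraries. The negative-control libraries had 715 FPKM with TGF-β and 527 FPKM without it, so that the miR-27 and negative-control libraries with TGF-β lay close to each other. Sdf2l1 (1.22), Dnajb9 (1.21), Creld2 (1.15) and the ubiquitin ligase gene Syvn1 (1.13) were also at least 1 higher with TGF-β, and Manf (0.84) and Xbp1 (0.81) came next. The membrane chaperone gene Canx (0.05) and the translocon gene Sec61b (-0.08) were near 0.

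The comparisons of each inhibitor with the negative control share the control libraries with each other and the inhibitor libraries with the present comparison, so their values are given side by side only. For the ATF4-CHOP list, the median difference was 0.87 with TGF-β and 0.30 without it for miR-31 minus negative control, and 0.36 with TGF-β and 0.31 without it for miR-27 minus negative control. For the ER chaperone list, it was 0.46 with TGF-β and 0.02 without it for miR-31 minus negative control, and -0.04 with TGF-β and -0.01 without it for miR-27 minus negative control. Without TGF-β, the ATF4-CHOP median of both inhibitor libraries thus lay above the negative control by nearly the same value, while the ER chaperone medians were near 0.

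The calls of limma depended on the miR-31 library without TGF-β. In a fit of all the libraries but that library, which takes the spread between the miR-27 and negative-control libraries and assumes that the lone miR-31 library varies like them, 274 genes (2.33%) were called higher and 137 (1.16%) lower at an adjusted p under 0.05. With 1 miR-31 library left, the spread of that inhibitor is unknown, and the estimate is no longer the mean over both states. It lay close to the difference with TGF-β, at 2.79 beside 2.77 for Herpud1 and 1.12 beside 1.14 for Hspa5. These calls therefore show how the fit depends on 1 library and are not a test of the difference with TGF-β. The ATF4-CHOP and ER chaperone lists were chosen with earlier results of these data known, so their calls by this fit would not be separate support. With only the 4 libraries, Herpud1 and Hspa5 each had an adjusted p of 0.998 by limma. With all 4 libraries the differences near 0 without TGF-β entered both the mean and the residual of these genes.

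Promoters of the genes apart with TGF-β were searched for 3 motifs on both strands, from 250 bases before to 50 bases after the start in RefSeq on GRCm38.p6. The motifs were ERSE, read by ATF6 with NF-Y (CCAAT, 9 bases, then CCACG), ERSE-II (ATTGG, 1 base, then CCACG) and the core of the composite site of C/EBP and ATF proteins (TTGCATCA). Of the 20 named genes at least 1 higher with TGF-β, 19 had a promoter in the RefSeq table. Creld2, Hspa5 and Syvn1 held an ERSE (15.8% of the 19, against 0.173% of the 8674 tested genes with a promoter), Herpud1 an ERSE-II (5.26% against 0.0922%), and Atf3, Chac1, Herpud1, Nupr1 and Slc7a11 the C/EBP-ATF core (26.3% against 0.623%). Over all 32851 promoters in that table, the shares were 0.119% for ERSE, 0.0365% for ERSE-II and 0.895% for the C/EBP-ATF core. A match is a description of these letters and not a bound site. The promoters of Herpud1 (chr8:94386179-94386478, plus strand), Hspa5 (chr2:34771840-34772139, plus strand) and Chac1 (chr2:119350992-119351291, plus strand) are shown with the matches in capitals, because together they hold all 3 motifs.
Herpud1: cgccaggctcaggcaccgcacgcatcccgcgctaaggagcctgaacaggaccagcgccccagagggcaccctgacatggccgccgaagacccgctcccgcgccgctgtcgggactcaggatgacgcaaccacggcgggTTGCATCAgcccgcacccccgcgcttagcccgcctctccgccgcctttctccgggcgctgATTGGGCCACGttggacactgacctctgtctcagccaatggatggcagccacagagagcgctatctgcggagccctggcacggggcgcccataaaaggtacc
Hspa5: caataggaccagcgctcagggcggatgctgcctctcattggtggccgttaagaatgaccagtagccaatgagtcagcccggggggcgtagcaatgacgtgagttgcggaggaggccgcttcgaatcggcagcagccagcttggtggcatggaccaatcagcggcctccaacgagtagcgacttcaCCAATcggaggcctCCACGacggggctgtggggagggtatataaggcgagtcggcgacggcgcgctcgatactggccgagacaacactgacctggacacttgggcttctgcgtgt
Chac1: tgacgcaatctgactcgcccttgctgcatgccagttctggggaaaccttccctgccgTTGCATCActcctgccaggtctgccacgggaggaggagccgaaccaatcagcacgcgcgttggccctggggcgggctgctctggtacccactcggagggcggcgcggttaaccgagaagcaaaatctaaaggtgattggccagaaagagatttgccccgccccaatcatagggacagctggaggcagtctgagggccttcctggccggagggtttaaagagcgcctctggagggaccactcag
Ddit3 and Trib3, at 2.87 and 2.08 among the genes furthest apart with TGF-β, held none of these letters in this window.

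Other stress lists stood apart in single genes rather than as a whole. Of 16 NRF2 antioxidant genes, 5 were higher by at least 0.3 with TGF-β and 0 lower, with a median of -0.02. These were Osgin1 (1.13), Slc7a11 (1.03), the haem oxygenase gene Hmox1 (0.83), Srxn1 (0.42) and Gclm (0.32). Of 15 heat shock genes, 2 were higher and 1 lower, led by Hspa1b, an inducible cytosolic chaperone, at 10.7 FPKM in the miR-31 library and 2.90 FPKM in the miR-27 library with TGF-β, and at 3.05 FPKM in the miR-31 library and 3.11 FPKM in the miR-27 library without it. Of 22 p53 targets, 5 were higher and 1 lower by at least 0.3 with TGF-β, and Sesn2, Ddit4 and Gdf15 among the 5 also belong to the ATF4-CHOP list. The growth arrest list had 6 of 18 genes higher and 3 lower, with a median of 0.01. In it all 3 Gadd45 genes, which couple stress signals to cell cycle arrest, were higher with TGF-β and lower without it. Gadd45a had 211 FPKM in the miR-31 library and 115 FPKM in the miR-27 library with TGF-β (0.87), and 41.4 FPKM in the miR-31 library and 48.8 FPKM in the miR-27 library without it (-0.23). Txnip, an inhibitor of thioredoxin, was lower in the miR-31 library with TGF-β, at 16.9 FPKM against 28.1 FPKM in the miR-27 library. In the cell cycle list 1 of 40 genes was higher and 2 lower by at least 0.3 with TGF-β, and its median was -0.11 with TGF-β and 0.03 without it.

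Genes of the usual TGF-β response stood apart between the inhibitors about as often as genes at large. Of 30 genes of the TGF-β/Smad list, 2 were higher and 1 lower by at least 0.3 with TGF-β, and the median was -0.01. Over all genes, 4.5% were higher and 2.68% lower by that measure. The 2 higher genes were Id3, an inhibitor of basic helix-loop-helix factors (22.7 FPKM in the miR-31 library and 12.6 FPKM in the miR-27 library, 0.80), and the mesenchymal transcription factor gene Snai2 (2.84 FPKM in the miR-31 library and 1.92 FPKM in the miR-27 library, 0.40). Of 29 matrix genes, 0 were higher by at least 0.3 with TGF-β and 4 were lower, a larger share than the 2.68% over all genes. These were Timp3, an inhibitor of matrix proteases (47.5 FPKM in the miR-31 library and 80.2 FPKM in the miR-27 library, -0.74), the fibulin gene Fbln2 (-0.48), the nidogen gene Nid1 (-0.41) and Timp1 (-0.40). Of 18 contractile genes, 0 passed 0.3 in either direction. Tnnt2, a troponin gene, had 102 FPKM in the miR-31 library and 101 FPKM in the miR-27 library with TGF-β. The mesenchymal markers that passed the filter, Acta2, Pdgfra and Pdgfrb, lay between -0.23 and -0.19 with TGF-β.

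Endothelial genes lay slightly higher with the miR-31 inhibitor without TGF-β. The median over 36 endothelial identity genes was -0.01 with TGF-β and 0.08 without it, and 32 of the 36 (88.9%) were above 0 without TGF-β, against 55.8% of all genes. With TGF-β 17 of the 36 (47.2%) were above 0, against 46.9% of all genes. A high share without TGF-β was not particular to endothelial genes, with 82.5% of cell cycle and 76.2% of cholesterol synthesis genes above 0. Other lists had low shares, such as 12.5% of NRF2 antioxidant genes. The 9 endothelial markers lay between 0.07 and 0.17 without TGF-β and between -0.07 and 0.17 with it, beside an SD over all genes of 0.11 without TGF-β and 0.194 with it. Kdr, the main VEGF receptor gene, had 36.7 FPKM in the miR-31 library and 35.3 FPKM in the miR-27 library with TGF-β, and 68.8 FPKM in the miR-31 library and 60.8 FPKM in the miR-27 library without it. The flow-induced factor gene Klf2 was higher in both states (0.47 with TGF-β and 0.17 without it). Gpihbp1, which anchors lipoprotein lipase on capillaries, differed without TGF-β, at 4.999 FPKM in the miR-31 library and 2.80 FPKM in the miR-27 library (0.66), but not by more than 0.10 with it.

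The remaining lists varied in how many genes passed 0.3 with TGF-β. The SRF/MRTF list had 4 of 20 higher and 0 lower, led by the immediate early gene Egr1 (0.85) and Ier2 (0.83), the interferon list 4 of 39 higher and 0 lower, led by Mx1 (0.58), and the NF-kB list 4 of 27 higher and 1 lower, led by Ptgs2 (0.58). The JNK and p38 list had 2 of 21 higher, Dusp8 (0.43) and Jun (0.37), and 0 lower, and the hypoxia and glycolysis list 0 of 29 higher and 2 lower. None of the 21 cholesterol synthesis, 12 small RNA pathway and 16 housekeeping genes passed 0.3 in either direction. Over all genes 4.5% were higher and 2.68% lower. The SRF/MRTF, interferon, NF-kB and JNK and p38 lists thus had larger shares higher than all genes, by counts of 2 to 4 genes. The hypoxia and glycolysis list had a larger share lower. In the plot of list medians only the ATF4-CHOP and ER chaperone lists lay outside -0.11 to 0.08. That plot leaves out the 2 lists of the study and the markers of other cells.

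**Figure D3:**
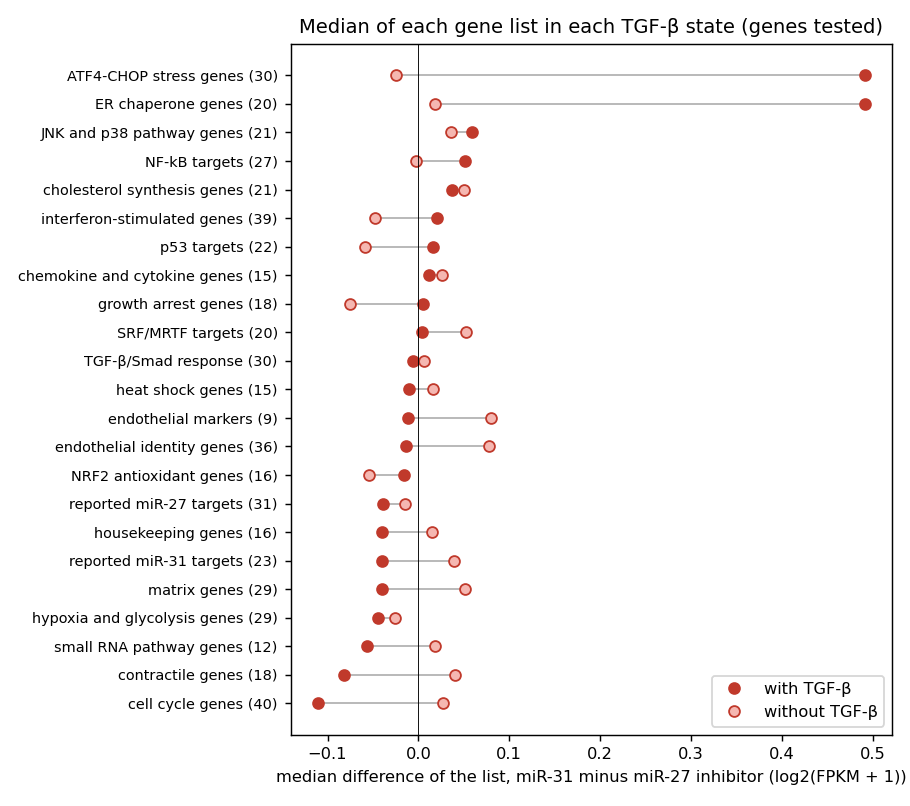
Median difference (horizontal axis, log2(FPKM + 1), miR-31 minus miR-27 inhibitor) of each gene list with TGF-β (filled) and without it (open), with the number of tested genes in brackets. The ATF4-CHOP and ER chaperone lists are at 0.49 with TGF-β and at -0.03 and 0.02 without it; the other lists lie between -0.11 and 0.08.

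The genes that the study itself follows were compared next; it picked them in cells of this kind, so they are not independent evidence. Stk40, a serine/threonine pseudokinase gene (chr4:125781201-125818273, mm9), and Vav3, a guanine nucleotide exchange factor (chr3:109143601-109488612, mm9), are its targets of miR-31, and both hold seed sites in their longest annotated 3′ UTR (GENCODE vM21, GRCm38). The sites are shown with the 7 matching bases in capitals, because each message holds sites for both microRNAs; positions count from 1 at the start of the 3′ UTR, of 2001 bases in Stk40 and 2089 bases in Vav3.
Stk40, miR-31 site at 655 to 661: acctaggagcccTCTTGCCagttcctctct
Stk40, miR-31 site at 1029 to 1035: agtggatgcccgTCTTGCCagaaacgctgt
Stk40, miR-31 site at 1334 to 1340: aatggggccaccTCTTGCCagcagtagcag
Stk40, miR-27 site at 1259 to 1265: aaaagctgactcACTGTGAgtgaccttggg
Vav3, miR-31 site at 1987 to 1993: ccatagactttgTCTTGCCtgtctgtagcc
Vav3, miR-27 site at 1514 to 1520: agaattatgtaaACTGTGAttgtgttttag
With TGF-β, Stk40 was at 2.53 FPKM with the miR-31 inhibitor, 1.27 FPKM with the miR-27 inhibitor and 1.21 FPKM with the negative-control inhibitor. Without TGF-β it was at 2.79 FPKM with the miR-31 inhibitor, 2.12 FPKM with the miR-27 inhibitor and 2.43 FPKM with the negative-control inhibitor. The miR-31 library was the highest in each state. The differences were 0.64 with TGF-β and 0.28 without it, with a mean of 0.46 ± 0.10 (SE of the fit). By limma with the 4 libraries, Stk40 had an unadjusted p of 0.00721 and an adjusted p of 0.998. Vav3 had 4.64 FPKM in the miR-31 library and 3.76 FPKM in the miR-27 library with TGF-β (0.25), and 12.6 FPKM in the miR-31 library and 11.8 FPKM in the miR-27 library without it (0.09).

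Of the 3 tested secreted factors of the study, Cx3cl1 and Angptl2 were lower by at least 0.3 with the miR-31 inhibitor where TGF-β was present, Il6 was within 0.3, and limma called 0 of them with the 4 libraries. With TGF-β, the chemokine gene Ccl17 had 6.83 FPKM with the miR-31 inhibitor, 16.6 FPKM with the miR-27 inhibitor and 19.5 FPKM with the negative-control inhibitor. Without TGF-β it was listed at 0 with the miR-31 inhibitor, at 0.0742 FPKM with the miR-27 inhibitor and at 0.0957 FPKM with the negative-control inhibitor, so it was left out of the test. Cx3cl1, the chemokine fractalkine, had 2.55 FPKM in the miR-31 library and 3.98 FPKM in the miR-27 library with TGF-β (-0.49), and 0.918 FPKM in the miR-31 library and 0.839 FPKM in the miR-27 library without it (0.06). Angptl2, an angiopoietin-like secreted protein, had 4.54 FPKM in the miR-31 library and 7.49 FPKM in the miR-27 library with TGF-β (-0.62), and 4.12 FPKM in the miR-31 library and 4.05 FPKM in the miR-27 library without it (0.02). Il6 stood closer, at 2.98 FPKM in the miR-31 library and 3.44 FPKM in the miR-27 library with TGF-β (-0.16). For Ccl17, Cx3cl1 and Il6, the miR-27 library with TGF-β lay between the miR-31 and negative-control libraries with TGF-β. Cxcl16 stayed below the filter, at 1.10 FPKM in the miR-31 library and 1.12 FPKM in the miR-27 library with TGF-β. Of the 15 chemokine and cytokine genes tested, 1 was higher by at least 0.3 with TGF-β, the neutrophil chemokine gene Cxcl2, and 3 were lower, Cx3cl1, Cxcl12 (-0.40) and Il24 (-0.39).

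**Figure D4:**
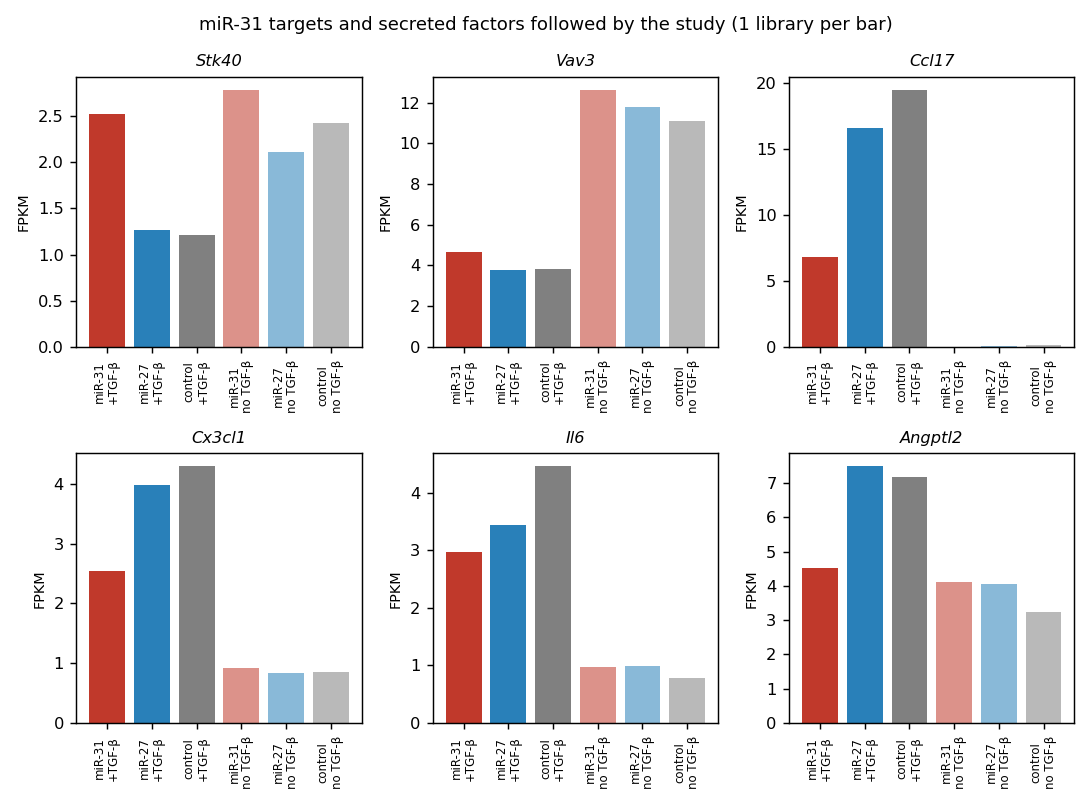
FPKM of Stk40, Vav3 and 4 secreted factors in each of the 6 libraries, coloured as in the plot of stress genes, with 1 library per bar. Stk40 is highest in the miR-31 library in each TGF-β state, and Ccl17, Cx3cl1, Il6 and Angptl2 are lower in the miR-31 library with TGF-β than in the miR-27 library with TGF-β.

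Genes with seed sites were then compared as groups, since an inhibitor is designed to release the targets of its own microRNA. Of the tested genes, 10405 matched a 3′ UTR in GENCODE vM21, and 993 of these held a miR-31 site and none for miR-27, 1458 held a miR-27 site and none for miR-31, 385 held both and 7569 held neither. Without TGF-β, 62.3% of genes with only miR-31 sites were higher with the miR-31 inhibitor, against 56.6% of genes with neither site and 50.8% of genes with only miR-27 sites. The share was 71.4% in the 126 genes with at least 2 miR-31 sites and none for miR-27, and 48.0% in the 204 genes with at least 2 miR-27 sites and none for miR-31. The differences behind these shares were small, with medians of 0.0275 for at least 2 miR-31 sites, 0.0175 for any miR-31 site, 0.00972 for neither, 0.00103 for any miR-27 site and -0.00416 for at least 2 miR-27 sites. Lists not chosen by seed sites also had such shares without TGF-β, at 82.5% of 40 cell cycle genes (median 0.0274) and 72.2% of 18 contractile genes. Others were low, at 12.5% of 16 NRF2 antioxidant genes. Whether the shares of the site groups come from released targets was not tested. With TGF-β the order of the site groups was not seen, with 46.3% for miR-31 sites, 47.5% for neither and 46.0% for miR-27 sites.

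Length of the 3′ UTR moved with the groups, with medians of 1998 bases for miR-31 sites, 908 bases for neither and 2074 bases for miR-27 sites. Among 3′ UTRs of 1500 bases or more, the shares without TGF-β were 62.4% of 639 genes, 58.9% of 2368 genes and 52.0% of 963 genes in the same 3 groups, and among those of 500 to 1499 bases 64.6% of 294 genes, 56.6% of 2881 genes and 48.0% of 394 genes. Below 500 bases the shares were 50.0% of 60 genes with miR-31 sites, 54.2% of 2320 genes with neither and 50.5% of 101 genes with miR-27 sites, so that the order was not seen there. Each share rests on 1 pair of libraries, and genes are not independent replicates, so no p-value is given. The plot of shares by site group shows the fan of open points without TGF-β and the narrow column of filled points with it.

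**Figure D5:**
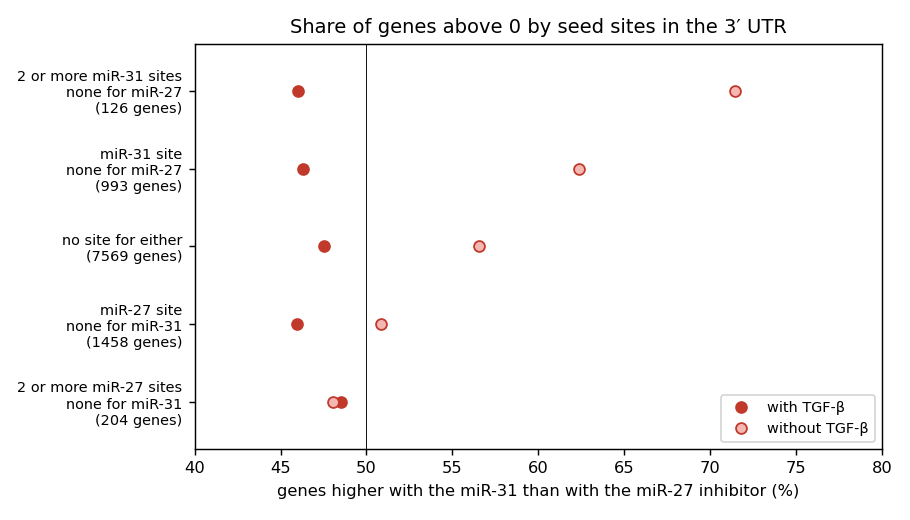
Share of genes (horizontal axis, %) with a difference above 0, miR-31 minus miR-27 inhibitor, by 7-base seed sites in the 3′ UTR, with TGF-β (filled) and without it (open). Without TGF-β the shares run from 71.4% for at least 2 miR-31 sites to 48.0% for at least 2 miR-27 sites; with TGF-β they lie between 46.0% and 48.5%.

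The leading single genes of these groups were picked by their mean difference in these same libraries, in the direction sought. Of 8 genes named by the rule, 5 passed 0.3 with TGF-β and 0 without it. The SD over all genes was 0.194 with TGF-β and 0.11 without it, so this choice favours genes apart with TGF-β. The count therefore says nothing about the sites. By the mean difference, those genes with at least 2 miR-31 sites and none for miR-27 were Zscan22 (0.47 with TGF-β and -0.01 without it), the signal recognition particle gene Srp54a (0.29 with TGF-β and 0.09 without it), the GTPase-activating protein gene Arhgap25 (0.31 with TGF-β and 0.04 without it) and the transcription factor gene Zbtb46 (0.32 with TGF-β and 0.02 without it). On the miR-27 side they were Fam134c, now named Retreg3, a receptor for degradation of ER membranes (-0.67 with TGF-β and -0.10 without it), the receptor gene Met (-0.27 with TGF-β and -0.11 without it), Fam69a (-0.32 with TGF-β and -0.01 without it) and Arl6ip1 (-0.22 with TGF-β and -0.05 without it). Srp54c, another Srp54 gene with 2 miR-31 sites and none for miR-27, went the other way from Srp54a. It differed by -0.30 with TGF-β and -0.29 without it. Genes reported elsewhere as targets were mostly within 0.3 of each other in the inhibitor libraries. Without TGF-β, 17 of 23 tested reported miR-31 targets (73.9%) and 12 of 31 reported miR-27 targets (38.7%) were above 0, against 55.8% of all genes, which is the same order as for the site groups. The lists share genes with the site groups, such as Sele and Met, so this is not separate support. The medians without TGF-β were 0.04 for reported miR-31 targets and -0.01 for reported miR-27 targets, against 0.01 over all genes. With TGF-β, 9 of the 23 (39.1%) and 11 of the 31 (35.5%) were above 0, against 46.9% of all genes. Of 23 tested reported miR-31 targets, 1 was higher by at least 0.3 with TGF-β (Stk40) and 2 lower (Cxcl12 and the adhesion molecule gene Sele). Of 31 reported miR-27 targets, 0 passed 0.3 with TGF-β and 1 did without it, the Notch ligand gene Dll4, at 5.77 FPKM in the miR-31 library and 3.73 FPKM in the miR-27 library without TGF-β (0.52).

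Few genes differed the same way in both states. A difference of at least 0.3 of the same sign with and without TGF-β was found for 11 genes higher (0.0934%) and 14 lower (0.119%) with the miR-31 inhibitor. Most of these were short RNAs, histones, unnamed models and names with no single current symbol, and 4 named genes on each side reached 0.3 in both states. On the higher side the 4 were Rsc1a1, Elm1, Clasrp and Acbd4. All but Acbd4 share their place with other tested names, given below. The next 8 by the smaller of their 2 differences, all under 0.3 in at least 1 state, were Lins2, Stk40, Ccdc88c, Mrmt1, F2rl3, Msmp, Kank3 and RIE2. Acbd4, an acyl-CoA-binding protein gene with no other name at its place, had 11.6 FPKM in the miR-31 library and 7.62 FPKM in the miR-27 library with TGF-β, and 7.89 FPKM in the miR-31 library and 6.06 FPKM in the miR-27 library without it. F2rl3, a thrombin receptor gene, had 4.67 FPKM in the miR-31 library and 3.79 FPKM in the miR-27 library with TGF-β, and 20.4 FPKM in the miR-31 library and 16.4 FPKM in the miR-27 library without it. The negative-control libraries had 5.22 FPKM of F2rl3 with TGF-β and 19.1 FPKM without it, so this gene was lowest in the miR-27 library in each state.

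On the lower side the 4 named genes past 0.3 in both states were Dynlt1c, Lst1, Myt1 and Awp1. Myt1 and Awp1 share their place with other tested names, given below. The next 8, each short of 0.3 in at least 1 state, were Srp54c, Snhg9, Dynlt1a, Orc1l, Clec2d, Sprr2a1, Xdh and Clca1. Dynlt1c, a dynein light chain gene, had 0.110 FPKM and 0.212 FPKM in the miR-31 libraries with and without TGF-β, against 5.26 FPKM and 1.84 FPKM in the miR-27 libraries with and without TGF-β. It belongs to a set of near-identical copies on chromosome 17, of which Dynlt1b went the other way without TGF-β (0.50), so reads may have been divided between the copies. Clec2d, a ligand of a natural killer cell receptor, had 43.4 FPKM in the miR-31 library and 68.2 FPKM in the miR-27 library with TGF-β, and 47.8 FPKM in the miR-31 library and 57.6 FPKM in the miR-27 library without it. Xdh, the xanthine oxidase gene, had 10.6 FPKM in the miR-31 library and 13.3 FPKM in the miR-27 library with TGF-β, and 21.1 FPKM in the miR-31 library and 25.5 FPKM in the miR-27 library without it. Each of these 24 genes had a limma adjusted p of 0.998.

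Of the 24 names, 13 shared their place with another tested name, and that name was often near 0. Elm1 (0.36 with TGF-β and 0.50 without it), by current symbol Ccn4, shares its place with Wisp1, at -0.10 with TGF-β and 0.01 without it. Wisp1 is an older name of Ccn4, so both are entries of the same gene, and the Wisp1 entry had much higher FPKM. In the same order of states, Mrmt1 (1.05 and 0.25) shares it with Prmt1 (-0.08 and -0.05), RIE2 (0.62 and 0.23) with Rnf10 (-0.07 and 0.09), Awp1 (-0.51 and -0.34) with Zfand6 (-0.09 and -0.05), and Orc1l (-0.27 and -0.38) with Orc1 (0.10 and 0.08). These names had between 0.626 and 6.09 FPKM in the 4 libraries apart from Elm1 with TGF-β. By current symbol, Mrmt1, RIE2, Awp1 and Orc1l are Prmt1, Rnf10, Zfand6 and Orc1 themselves, so each of these pairs holds entries of the same gene. The entry under the current symbol had the higher FPKM and lay between -0.09 and 0.10 in both states. Clasrp (0.45 and 0.36) shares its place with ClaspL (-0.11 and -0.45) and Sfrs16 (-0.34 and -0.04), which went the other way. Sfrs16 is an older name of Clasrp, so 2 entries of the same gene went opposite ways. Myt1 had 0.0049 FPKM in the miR-31 library and 1.38 FPKM in the miR-27 library with TGF-β, and 2.35 FPKM in the miR-31 library and 3.46 FPKM in the miR-27 library without it (-1.24 with TGF-β and -0.41 without it). At the same place, the kinase gene Pkmyt1 differed by 0.07 with TGF-β and 0.10 without it. Myt1 is also an older name of that kinase, so this entry may belong to the same gene. Rsc1a1, first on the higher side, had 1.57 and 1.80 FPKM in the miR-31 libraries with and without TGF-β, against 0.926 and 0.659 FPKM in the miR-27 libraries with and without TGF-β. Its place is shared with Ddi2, at 0.09 with TGF-β and -0.05 without it. For a name that shares its place, how fragments were divided between the names and a difference in level cannot be told apart.

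The TGF-β response, the level with TGF-β minus the level without it, was at least 1 further up with the miR-31 inhibitor for 38 genes (0.323%) and at least 1 further down for 19 (0.161%). Those furthest up by the rule for named genes included R3hdm2, Ddit3, Herpud1, Chac1, Trib3, Atf3 and Hspa1b. R3hdm2 was apart in both states, at 47.9 FPKM in the miR-31 library and 4.22 FPKM in the miR-27 library with TGF-β, and at 19.3 FPKM in the miR-31 library and 43.3 FPKM in the miR-27 library without it. The 8 furthest down were Lars2, Hexdc, Commd4, Frmd8, Dynlt1c, Sgo1, Slirp and Tmem2. Hexdc, a hexosaminidase gene, had 20.7 FPKM in the miR-31 library without TGF-β, 14.2 FPKM in the negative-control library with TGF-β and between 2.79 and 2.92 FPKM in the other 4 libraries, so its high libraries followed neither inhibitor nor TGF-β. Tmem2, a hyaluronidase gene now named Cemip2, had 21.1 FPKM in the miR-31 library and 39.3 FPKM in the miR-27 library with TGF-β, and 31.3 FPKM in both libraries without it. These differences of responses have no residual degree of freedom in the 4 libraries and were not tested.

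Some genes differed from the negative control in the same direction with either inhibitor. They were named after their values were seen. Angpt2, an antagonist of the Tie2 receptor, had 87.7 FPKM with the miR-31 inhibitor and 78.9 FPKM with the miR-27 inhibitor without TGF-β, against 48.9 FPKM with the negative-control inhibitor. The inhibitors themselves differed in Angpt2 by 0.15 without TGF-β and 0.30 with it. Kit, a receptor for stem cell factor, had 19.9 FPKM with the miR-31 inhibitor and 16.4 FPKM with the miR-27 inhibitor without TGF-β, against 12.6 FPKM with the negative-control inhibitor, and the inhibitors differed by 0.27 without TGF-β and 0.20 with it. For both genes the miR-31 library was thus above the miR-27 library in each state, past the 95th percentile over all genes without TGF-β (0.14), with an adjusted p of 0.998 by limma. Txnip without TGF-β had 41.9 FPKM with the miR-31 inhibitor and 43.1 FPKM with the miR-27 inhibitor, against 79.2 FPKM with the negative-control inhibitor. Trib3 without TGF-β, given above for the inhibitors, had 47.7 FPKM with the negative-control inhibitor. Txnip and Trib3 were closer, with inhibitor differences of -0.04 and 0.02 without TGF-β. Whether a difference from the negative control comes from the inhibitors or from the negative-control libraries cannot be told apart with 1 library per condition.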

How the data were processed

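RNA of 6 libraries was measured after depletion of ribosomal RNA and directional library preparation, per the labels' protocols. The authors deposited FPKM per gene name, made with TopHat2 2.0.9 and Cufflinks 2.1.1 on mm9, per the submitters' processing notes. The gene annotation, options and filters of that step are not given in the sources used here. The depth is unknown, so no counting interval is given.

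The 4 libraries were fitted on log2(FPKM + 1) with limma 3.58.1 in R 4.3.3 (inhibitor plus TGF-β state, 2-sided, Benjamini-Hochberg over the 11775 genes, threshold 0.05). The fit was tested on simulated data. Within a TGF-β state, genes past 1 or 0.3 were counted without a test. Loci are mm9, with starts counted from 1. Seed sites came from the longest GENCODE vM21 3′ UTR, promoters and microRNAs from RefSeq (GRCm38.p6).

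Named genes were the 12 higher and 12 lower by the smaller of their differences in the 2 states, the 8 above and 8 below by response, up to 4 per list, the study's genes and 4 seed-site genes per microRNA. Outside the lists, names of short RNAs, histone genes, unnamed models and names with no single current symbol were passed over. Scarna3b, the genes apart from the negative control with either inhibitor and the other genes given in the text do not follow this rule and were chosen with their values in view. The 30 lists and the members were chosen with earlier results of these data known. Some items that the rule covers are not reported here. Alternatives were other pseudocounts, filters, scalings, fits and left-out libraries.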

Additional observations from a re-analysis of the deposited data

Results flagged for a closer look

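For 5 named genes, the libraries with TGF-β and the libraries without it moved opposite ways between the inhibitors, each by at least 0.3. The difference between the 2 states was not tested, since each rests on 4 libraries with no replicate. R3hdm2 had a difference with TGF-β minus that without it of 4.35, the largest among named genes, from 47.9 FPKM in the miR-31 library and 4.22 FPKM in the miR-27 library with TGF-β. Without TGF-β, R3hdm2 had 19.3 FPKM in the miR-31 library and 43.3 FPKM in the miR-27 library, and the negative-control libraries had 22.1 FPKM with TGF-β and 15.7 FPKM without it.

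Lars2, the mitochondrial leucyl-tRNA synthetase gene, gave -3.57, with 3.81 FPKM in the miR-31 library and 23.0 FPKM in the miR-27 library with TGF-β, and 13.9 FPKM in the miR-31 library and 5.27 FPKM in the miR-27 library without it. Commd4 gave -1.78, with 17.5 FPKM in the miR-31 library and 22.4 FPKM in the miR-27 library with TGF-β, and 60.9 FPKM in the miR-31 library and 21.9 FPKM in the miR-27 library without it. Frmd8 gave -1.75, with 12.5 FPKM in the miR-31 library and 17.4 FPKM in the miR-27 library with TGF-β, and 39.8 FPKM in the miR-31 library and 15.5 FPKM in the miR-27 library without it. The chemokine gene Cxcl2 gave 0.987, with 10.3 FPKM in the miR-31 library and 6.04 FPKM in the miR-27 library with TGF-β, and 5.63 FPKM in the miR-31 library and 7.18 FPKM in the miR-27 library without it. The negative-control libraries with and without TGF-β had 5.56 and 13 FPKM of Lars2 and 19.95 and 53.86 FPKM of Commd4. They had 19.2 and 32.8 FPKM of Frmd8 and 5.46 and 6.68 FPKM of Cxcl2. Without TGF-β, the miR-31 library lay closer to the negative control than the miR-27 library did for Lars2, Commd4 and Frmd8, but not for Cxcl2.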

How the results depend on the processing

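No pairing by replicate was possible because the labels give no replicate numbers that join libraries. The libraries are paired only by their TGF-β state, which is a term of the limma fit. The count of genes called by limma was 0, and it was 1 with trend and robust options (Scarna3b) and 2 with the names listed at 0 kept (Mapk9 and Hnrnpd). It ranged from 0 to 411 when each of the 6 libraries was left out of the fit of all 6, with 411 when the miR-31 library cultured without TGF-β was left out, 1 when the miR-31 library cultured with it was left out, 2 when the miR-27 library cultured without it was left out and 0 for any of the other 3; the report states how that fit is built. Genes at least 1 apart with TGF-β numbered 38, and 61 with a pseudocount of 0.1, 22 with a pseudocount of 5, 24 at a mean of at least 5 FPKM, 64 with the names listed at 0 kept and 24 without short RNAs, histones and unnamed models. Without TGF-β there were 17, and 35 with a pseudocount of 0.1, 11 with a pseudocount of 5, 35 with the names listed at 0 kept and 7 without short RNAs, histones and unnamed models. Responses at least 1 apart numbered 57, and under the same 4 alternatives 102, 32, 87 and 31. Genes at least 0.3 apart in both states numbered 25, and 56 with a pseudocount of 0.1, 8 with a pseudocount of 5, 9 at a mean of at least 5 FPKM and 8 without short RNAs, histones and unnamed models. The mean differences of Cx3cl1 (0.0788), Il6 (0.105), Angptl2 (0.0716) and Zscan22 (-0.0519) turned round when the miR-31 library cultured with TGF-β was left out, and those of Cx3cl1 (0.0608), Angptl2 (0.0206) and Zscan22 (-0.00955) in the pair cultured without TGF-β alone; the cause was not tested. Median-ratio scaling and quantile normalization left the median over genes within -0.01 and 0.01 in each state. Over named genes, lists and site groups, 867 values counted as unchanged, 27 moved and 7 turned round. A named gene's mean difference counted as unchanged when it kept its sign and its side of the threshold. A list or site-group median did so within a margin set by the gap between its 2 states, so its sign could change. The ATF4-CHOP median, 0.24 by the mean difference and -0.03 without TGF-β, counted as unchanged. A response difference did so within a set share of its size. Most values that became called did so when the miR-31 library cultured without TGF-β was left out, which leaves 1 miR-31 library. The unknown depth limits all values of low FPKM.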
